A study of Homo sapiens with 8 samples.

Results

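Transcripts of the proteasome subunits were examined in MEL202 cells, a line from a human uveal melanoma with a mutant copy of SF3B1, which encodes a subunit of the spliceosome. Loci were taken whose gene name is PSM followed by a letter from A to G and digits, with the locus of highest mean kept for each symbol and a mean over the 8 libraries of at least 1. This gave 38 genes out of 32087 loci in the table, and all 38 were among the 8599 named genes that entered the tests. They comprise 6 alpha and 7 beta subunits of the core particle, 6 ATPases and 11 other subunits of the regulatory particle, 5 assembly factors and 3 activators or inhibitors. The subunit genes PSMA2, PSMB10, PSMG2, PSMG4, PSME1 and PSME3 were not analysed here.

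RNA was sequenced from 4 lines, each with 1 library without Shld and 1 library with it. Shld is a small ligand that stabilises a destabilising domain, so that a protein tagged with this domain is degraded when the ligand is withdrawn. The knockout line has lost its mutant SF3B1 allele, the mutant degron line carries the domain on mutant SF3B1, and the wildtype degron line carries it on wildtype SF3B1. The labels name no domain for the parental cells, which are the set called repeat #1. The labels give 2 days for the knockout and degron lines and no time for parental cells. The column names give 4 days for the libraries of the knockout line and of parental cells without Shld, and they add a domain on wildtype SF3B1 in the knockout line, which its label does not name. Each kind of derived line is represented by a single line, so other differences between the lines and the change at SF3B1 cannot be told apart.

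The proteasome is the main protease of the cytosol and nucleus and degrades proteins marked with ubiquitin. Its core is a barrel in which outer alpha rings gate the entrance and inner beta rings hold the proteolytic sites, and the regulatory particle on its ends binds ubiquitin chains, removes them and unfolds the substrate with a ring of ATPases. Dedicated chaperones, among them PSMG1, PSMG3, PSMD5, PSMD9 and PSMD10, help assemble the core and the base of the regulatory particle and are not part of the finished enzyme. In mammalian cells NFE2L1, a transcription factor held at the endoplasmic reticulum, raises transcription of the subunit genes together when proteasome activity is short. Several subunit genes have processed pseudogenes, and how reads shared with them were assigned is not given in the sources used here.

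Values are FPKM, which count fragments per length of transcript and per size of library, after a rescaling by the authors that set the 75th percentile of each library to 10, and absolute depth is unknown. The summed values ran from 762679 to 961994. Proteasome members took 0.619% to 0.775% of them, and ribosomal protein genes took 11.8% and 12.1% in the wildtype degron line, 16.6% to 18.9% in the knockout and mutant degron lines, and 17.5% and 21.0% in parental cells. SF3B1 stood at 138 and 158 in the knockout line without and with Shld, at 252 and 248 in the mutant degron line, at 201 and 188 in the wildtype degron line, and at 240 and 266 in parental cells. All 8 melanocyte markers measured, PMEL and MLANA among them, were at 1 or more in every library. None of 6 epithelial markers reached 1, and CD3E, which marks T cells, was listed at 0 in every library, while CD68, which macrophages also express, carried the summed immune markers of 639 to 834. Of 4 fibroblast markers only LUM reached 1, and their sum ran from 1.64 to 13.2 in the derived lines and was 21.0 and 29.9 in parental cells without and with Shld. The summed melanocyte markers were 6442 and 7185 in the knockout line, 9138 and 7561 in the mutant degron line, 14207 and 15399 in the wildtype degron line, and 12932 and 11949 in parental cells.

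Core subunits were the most abundant class. In bulk RNA, fewer cells of a type and less RNA per cell cannot be told apart. Over the 8 libraries the median of the members' mean levels was 214 rescaled FPKM for the 13 core subunits, 106 for the 17 regulatory subunits, 55.3 for the 5 assembly factors and 39.9 for the 3 activators or inhibitors. PSMB4, a structural beta subunit, had the highest mean at 776, followed by the alpha subunit PSMA7 at 447 and the ATPase PSMC5 at 331. Levels of subunits that occur in equal numbers in the assembled particle differed widely within a class, from 52.1 for PSMA5 to 447 for PSMA7 in the alpha ring and from 37.8 for PSMC1 to 331 for PSMC5 among the ATPases. The lowest members were PSMD5, a chaperone of the base, at 9.32 and PSME4, a nuclear activator, at 20.5.

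The inducible subunits that replace the catalytic ones in immunoproteasomes fell short of the minimum mean. PSMB8 had a mean of 0.174 and PSMB9 of 0.357, against 173 for PSMB5, the constitutive counterpart of PSMB8 with the chymotrypsin-like site, and 169 for PSMB6, that of PSMB9 with the caspase-like site. PSMB9 stood at 0.0632 and 0.0458 in the knockout line without and with Shld, at 0.0634 and 0.134 in the mutant degron line, at 0.741 and 0.728 in the wildtype degron line, and at 0.431 and 0.648 in parental cells. PSMB8 reached at most 0.0587 in the knockout line, 0.0416 in the mutant degron line and 0.154 in the wildtype degron line, and had 0.571 and 0.391 in parental cells without and with Shld. The testis alpha subunit PSMA8 was listed at 0 throughout, and the thymic PSMB11 had a mean of 0.00424. These 4 genes were the symbols that missed the minimum, and PSMD5 was the member nearest to it.

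**Figure D1:**
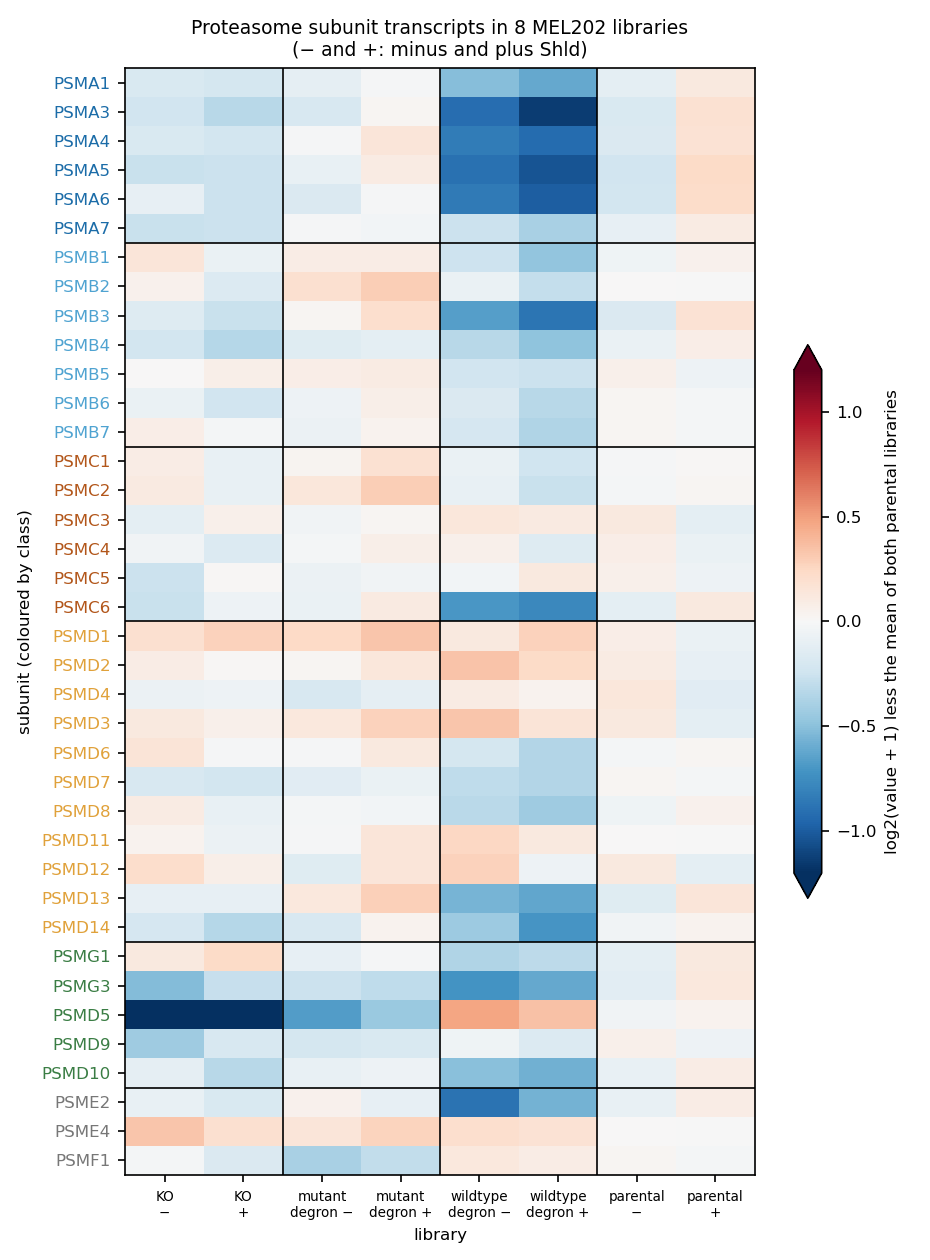
Level of each of the 38 subunits (rows, coloured by class) in each of the 8 libraries (columns), as log2(value + 1) less the mean of both parental libraries. The rows of PSMA3, PSMA4, PSMA5 and PSMA6 are among the darkest blue in both wildtype degron libraries, and PSMD5 is off the scale in both knockout libraries.

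The largest shift among lines was in the wildtype degron line against parental cells. Here 21 of 38 members fell and 2 rose (limma on log2(value + 1) with line and Shld state as terms, Benjamini-Hochberg adjusted p under 0.05), where 48.2% of all genes tested passed, 24.5% lower and 23.7% higher. At an unadjusted p under 0.05 there were 24 members, against 55.4% of all genes. The median difference was -0.28 on the log2 scale over the members and 0.01 over all genes. Of the 13 core subunits 11 fell, and all 13 had differences below 0 with a median of -0.41. Of the 17 regulatory subunits 6 fell and 1 rose, with a median of -0.05. Both wildtype degron libraries lay below all 6 other libraries for 19 of 38 members, where this held for 23.3% of all genes, and above all 6 for 3 members, where this held for 23.6%.

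All 6 alpha subunits fell, with a median of -0.90. PSMA3 stood at 103 and 88.0 in the wildtype degron line without and with Shld, at 154 to 198 in the knockout and mutant degron lines, and at 171 and 222 in parental cells. PSMA5 stood at 33.0 and 29.8 in the wildtype degron line, at 51.4 to 66.6 in the knockout and mutant degron lines, and at 52.8 and 73.1 in parental cells. PSMA6 stood at 175 and 158 in the wildtype degron line, at 264 to 313 in the knockout and mutant degron lines, and at 271 and 368 in parental cells. In each of these alpha subunits both wildtype degron libraries lay below the other 6, and parental cells with Shld were the highest library. The difference was -1.03 ± 0.14 for PSMA3 (SE of the limma fit, adjusted p = 0.00079), -0.96 ± 0.13 for PSMA5 and -0.92 ± 0.14 for PSMA6. PSMA4, at 143 and 135 against 228 and 291 in parental cells, differed by -0.88 ± 0.12, and PSMA1, at 226 and 211 against 298 and 352, by -0.56 ± 0.10. PSMA7, the most abundant alpha subunit, had the smallest fall of the ring, at -0.32 ± 0.10, with 413 and 377 in the wildtype degron line, 411 to 488 in the knockout and mutant degron lines, and 462 and 526 in parental cells.

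Of the 7 beta subunits 5 fell. PSMB3, a structural subunit, stood at 153 and 132 in the wildtype degron line without and with Shld, at 201 to 278 in the knockout and mutant degron lines, and at 215 and 273 in parental cells, a fall of 0.77 ± 0.13 on the log2 scale (limma, adjusted p = 0.0021). The catalytic subunits differed less. PSMB7, with the trypsin-like site, stood at 204 and 183 in the wildtype degron line and 239 and 232 in parental cells, and PSMB5 at 150 and 147 in the wildtype degron line and 183 and 168 in parental cells. For both, the wildtype degron libraries were the lowest of the 8, and the differences were -0.28 ± 0.10 and -0.24 ± 0.09 (limma, adjusted p = 0.037 and 0.0498). PSMB6, with 160 and 143 against 183 and 178, had a difference of -0.25 ± 0.10 and an adjusted p of 0.064 in the same limma fit, and its wildtype degron values overlapped those of the knockout line. PSMB4 and PSMB1 fell by 0.41 and 0.36, and the difference of PSMB2 was -0.18 ± 0.10 (limma, adjusted p = 0.17).

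In the regulatory particle the ATPases did not move as a ring. PSMC6 fell by 0.74 ± 0.10 (limma, adjusted p = 0.00082), with 60.9 and 57.5 in the wildtype degron line, 82.3 to 107 in the knockout and mutant degron lines, and 91.4 and 108 in parental cells, and its wildtype degron values lay below all others. The other 5 ATPases lay between -0.18 for PSMC2 and 0.12 for PSMC3 and did not pass. In the lid, PSMD13, PSMD14, PSMD8, PSMD7 and PSMD6 fell by 0.59, 0.57, 0.37, 0.32 and 0.28. PSMD14, the deubiquitinase that takes the ubiquitin chain off the substrate, stood at 104 and 86.0 in the wildtype degron line against 137 and 146 in parental cells. PSMD2, a scaffold of the base that binds shuttle proteins, rose by 0.29 ± 0.10 (limma, adjusted p = 0.039), with 160 and 147 in the wildtype degron line above the other 6 libraries, which ran from 117 to 138. The lid subunits PSMD3, PSMD11 and PSMD12, the base scaffold PSMD1 and the ubiquitin receptor PSMD4 had differences from 0.07 to 0.24 and did not pass.

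Among the chaperones, PSMG3 and PSMG1, which act in core assembly, fell by 0.67 ± 0.10 and 0.34 ± 0.09, and PSMD10, a chaperone of the base also known as gankyrin, fell by 0.54 ± 0.11. PSMD5 moved the other way, with 17.6 and 16.1 in the wildtype degron line against 12 and 12.7 in parental cells, a rise of 0.42 ± 0.13 (limma, adjusted p = 0.024). PSME2, a subunit of the interferon-inducible activator, stood at 66.4 and 83.4 in the wildtype degron line, 109 to 128 in the knockout and mutant degron lines, and 117 and 131 in parental cells, a fall of 0.73 ± 0.12 (limma, adjusted p = 0.0018). Its wildtype degron values lay below all others. PSME4 and the inhibitor PSMF1 had differences of 0.19 ± 0.10 and 0.11 ± 0.09 and did not pass.

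**Figure D2:**
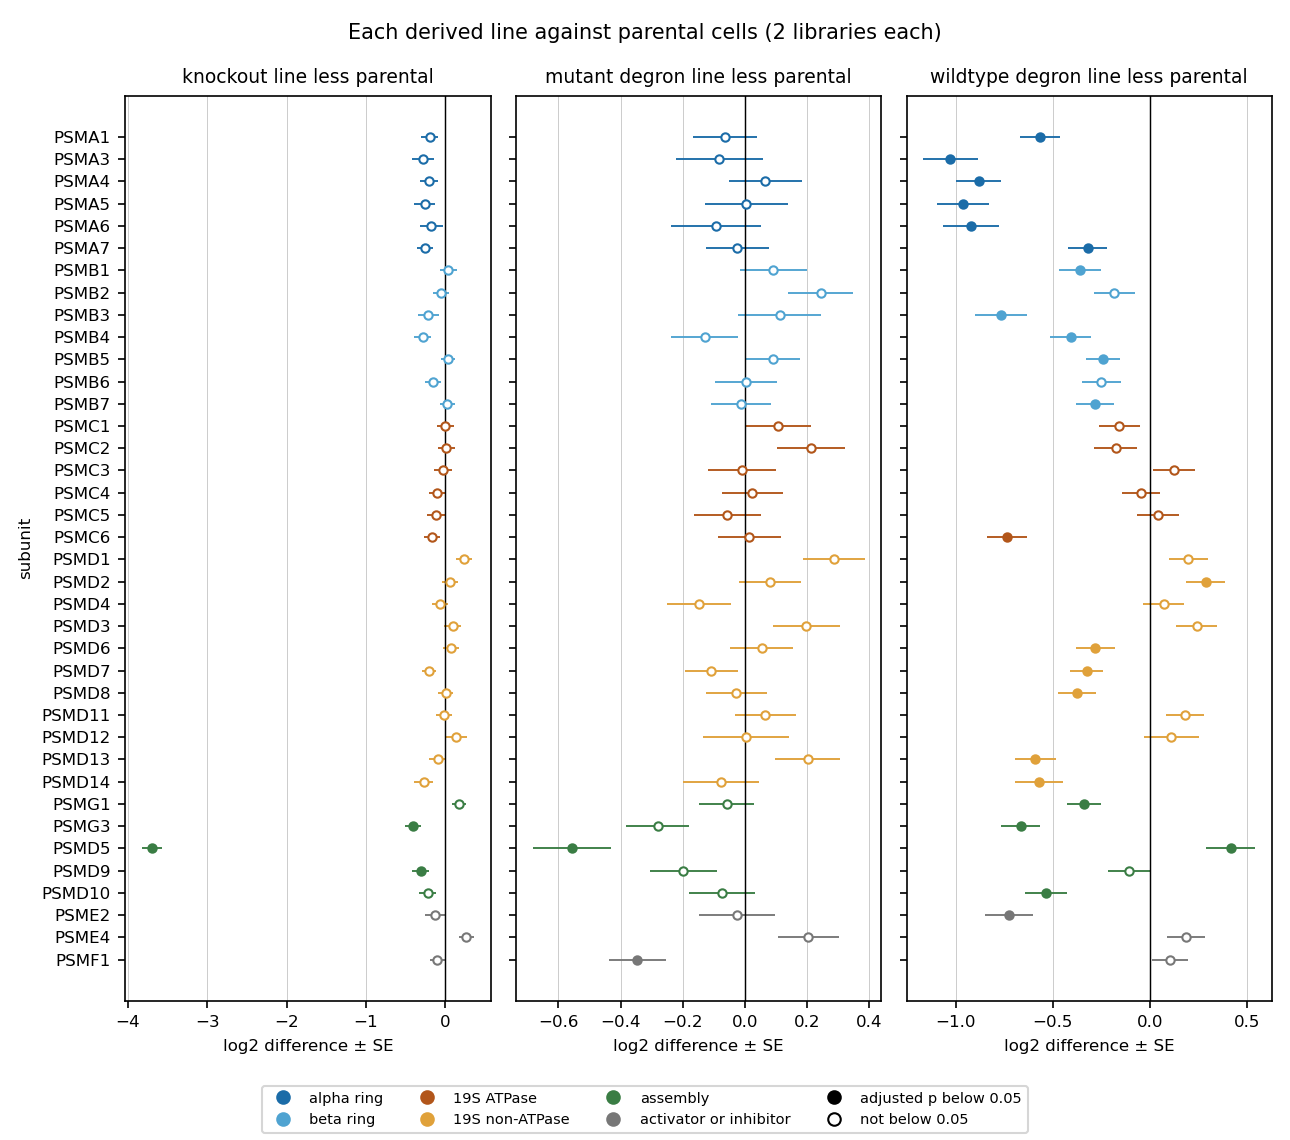
Log2 difference of each derived line from parental cells (horizontal axis, its range set for each panel) for each of the 38 subunits, with the SE of the limma fit. Filled points have an adjusted p below 0.05; the alpha ring points of the wildtype degron panel lie between -1.03 and -0.32, and PSMD5 in the knockout panel lies at -3.69.

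The balance of the classes was lowest in the wildtype degron line. The summed level of core subunits over that of regulatory subunits was 1.28 and 1.22 in the wildtype degron line without and with Shld, 1.55 and 1.47 in the knockout line, 1.63 and 1.59 in the mutant degron line, and 1.53 and 1.82 in parental cells. The wildtype degron libraries had the lowest ratios of the 8, and for these sums the parental pair spanned more than any other pair. The ratio of class medians was also lowest in the wildtype degron line. It was 1.48 and 1.66 there without and with Shld, against 2.07 and 2.16 in parental cells. For medians the wildtype degron pair spanned the most.

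Several measured properties moved with this fall. Core transcripts are short, with a median length of 879 bases against 1357 for regulatory ones, from the median length of the protein-coding transcripts of each gene in GENCODE. Over 8271 genes with a known length, the difference between wildtype degron and parental cells had a Spearman correlation of 0.31 with length. Over the 38 members it was 0.40, as a description with no test, since genes share the libraries. In the knockout and mutant degron lines it was 0.22 and 0.21 over all genes and 0.42 and 0.36 over the members. The difference within the parental pair, without less with Shld, gave 0.21 over all genes and 0.25 over the members. The relation was thus not particular to the wildtype degron line. After the trend with length had been removed from each library, 14 members fell and 3 rose, and 7 of the core subunits fell, 5 of them alpha subunits. With this correction 10 of 38 members had differences above 0, against 52.2% of all genes. The median was -0.16 over the members and 0.02 over all genes. Over all genes, 3678 to 4561 passed under the alternatives that keep all libraries, this correction among them, against 4144 of 8599 without them. The alternatives differ in the number of genes tested, which was 8271 with this correction, so these counts are not shares. The share that passed with this correction alone is not given here. PSMA5, whose median transcript of 2616.5 bases is the longest of the alpha ring, differed by -1.02 ± 0.14 with that correction (limma, adjusted p = 0.001). PSMB2, the longest core subunit at 3459 bases, had the smallest difference of the core, at -0.18 without the correction, and did not pass. The wildtype degron line also had the lowest share of ribosomal protein transcripts, and parental cells with Shld the highest. Its part in the result was not tested.

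The count of members depended on single libraries here and in the other line comparisons. So did the count over all genes, whose ranges are given at the end. It was 10 members without the wildtype degron library with Shld, 12 without the parental library with Shld and 14 without the wildtype degron library without Shld, all lower, and 19 to 22 without any other library. PSMA3, PSMA4, PSMA5, PSMA6, PSMB3, PSMC6, PSMD13, PSMD10, PSME2 and PSMG3 kept an adjusted p under 0.05 in the limma fit whichever library was left out, and each alpha subunit stayed below 0. With all libraries kept, PSMA7, PSMB1, PSMB4, PSMB5, PSMB7, PSMD2, PSMD5, PSMD6, PSMD7 and PSMD8 each missed the threshold under at least 1 alternative scaling, filter or pseudocount or with the length correction. The parental pair itself differed in this class: all 6 alpha subunits were lower without Shld, by 0.19 to 0.46 on the log2 scale.

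**Figure D3:**
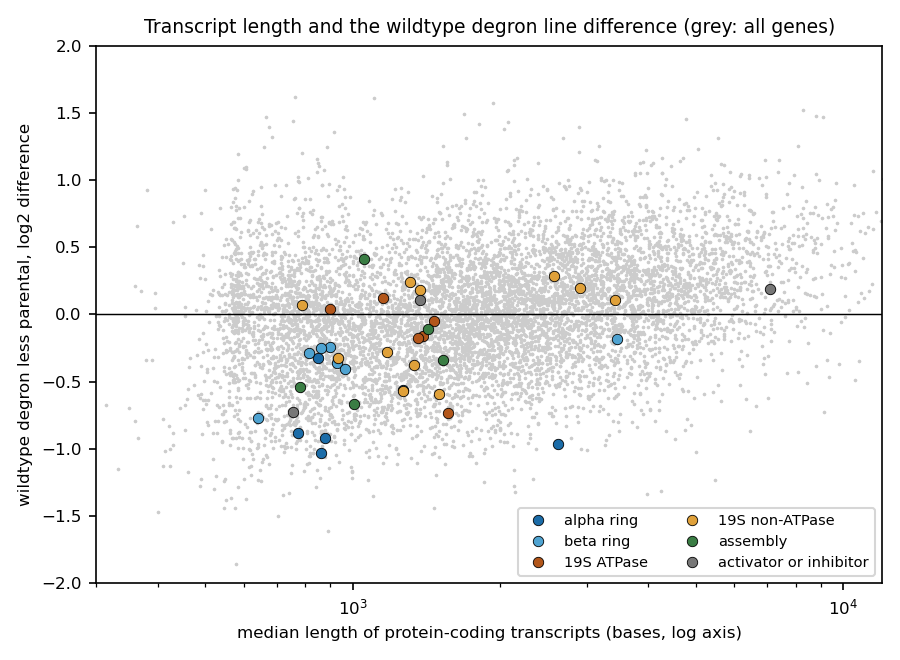
Log2 difference between wildtype degron and parental cells (vertical axis) against the median length of protein-coding transcripts (horizontal log axis, bases) for all genes with a length (grey) and the 38 subunits (coloured by class). Most core subunits sit at the short end below 0, and PSMA5 is the alpha subunit to the right, at -0.96.

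Promoters are shown for 3 members that fell in the wildtype degron line, 1 each from the alpha ring, the beta ring and the ATPases, to show the letters behind the motif counts. They are RefSeq promoters of build GRCh38.p14, from 250 bases before to 50 bases after the gene's start, at chr1:109426399-109426698 (minus strand), chr17:38752491-38752790 (plus strand) and chr14:52706950-52707249 (plus strand). Capitals mark CGGAAG, the core of ETS factor elements, on either strand.
PSMA5: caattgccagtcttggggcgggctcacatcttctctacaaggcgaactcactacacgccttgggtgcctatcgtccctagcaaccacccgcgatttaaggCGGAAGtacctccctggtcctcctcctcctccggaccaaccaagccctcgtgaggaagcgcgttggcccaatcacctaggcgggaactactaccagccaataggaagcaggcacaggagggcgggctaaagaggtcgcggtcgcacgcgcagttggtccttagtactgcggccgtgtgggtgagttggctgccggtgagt
PSMB3: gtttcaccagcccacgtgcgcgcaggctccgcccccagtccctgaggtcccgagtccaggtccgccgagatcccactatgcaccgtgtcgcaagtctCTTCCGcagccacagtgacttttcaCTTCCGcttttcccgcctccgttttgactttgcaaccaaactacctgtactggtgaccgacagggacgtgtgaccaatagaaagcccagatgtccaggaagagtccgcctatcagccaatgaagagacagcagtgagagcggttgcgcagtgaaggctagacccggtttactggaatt
PSMC6: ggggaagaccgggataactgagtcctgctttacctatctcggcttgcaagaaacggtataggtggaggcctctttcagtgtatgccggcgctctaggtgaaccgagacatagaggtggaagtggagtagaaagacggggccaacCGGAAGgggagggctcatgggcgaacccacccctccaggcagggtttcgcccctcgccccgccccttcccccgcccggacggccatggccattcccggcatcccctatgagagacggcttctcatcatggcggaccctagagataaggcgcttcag
PSMA5 and PSMC6 hold the motif 1 time each and PSMB3 holds it 2 times, as CTTCCG on the strand shown. The promoters of PSMA3, PSMB5, PSMD10, PSMG1 and PSME2, which also fell in this line, do not hold CGGAAG on either strand. Those of the other members that fell and had a promoter at hand do. Among members that did not fall in this line, the promoters of PSMC1, PSMC2, PSMC4, PSMC5, PSMD1, PSMD9, PSMD12, PSME4 and PSMF1 also hold it. Those of PSMB2, PSMC3, PSMD2, PSMD3, PSMD5 and PSMD11 do not. Promoters were at hand for 32 of 38 members, and CGGAAG occurred on either strand in 21 of them (65.6%), against 22.6% of 27305 promoters of the same length. By class it was in 6 of 9 core promoters and 12 of 16 regulatory ones. TTCCGG, another form of the element that overlaps it, occurred in 59.4% of member promoters against 20.1%, in 2 of 9 core and 13 of 16 regulatory ones. CCAAT occurred in 50% against 39.7% and the GC box GGGCGGG in 53.1% against 36.7%. TGACTCAGC, a full element of NFE2L1 and NFE2L2, was in 0 member promoters and in 0.689% of all, and its loose form TGANNNNGC was in 68.8% against 47.1%. TGACTCA was in 9.38% against 6.05%, CACGTG in 6.25% against 8.78% and TGACGTCA in 0 member promoters against 2.25%. The motifs were chosen after earlier results were known, and a match describes the letters of these windows only.

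The knockout line differed from parental cells in few members, all of them assembly factors. PSMD5, PSMG3 and PSMD9 fell and 0 members rose (limma, adjusted p under 0.05), where 40.1% of all genes passed, 21.4% lower and 18.7% higher. At an unadjusted p under 0.05 there were 8 members, against 49.5% of all genes. The median difference was -0.10 over the members and -0.03 over all genes, with class medians of -0.23 for the alpha ring, -0.06 for the beta ring, -0.07 for the ATPases and 0.00 for the other regulatory subunits. The parental libraries are the same as those of the comparison above.

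PSMD5, a chaperone in assembly of the base, was near 0 in the knockout line and was there below all 6 other libraries, which held for 10.9% of all genes. It stood at 0.0351 and 0.0255 without and with Shld there, at 7.41 and 8.79 in the mutant degron line, at 17.6 and 16.1 in the wildtype degron line, and at 12 and 12.7 in parental cells. The 4 lines did not overlap, and the order ran from the knockout line over the mutant degron line and parental cells to the wildtype degron line. In the knockout line it fell by 3.69 ± 0.13 on the log2(value + 1) scale (limma, adjusted p = 2.4e-07), and with a pseudocount of 0.1, which compresses low values less the difference was -6.58 ± 0.18. The difference stayed between -3.73 and -3.66 whichever library was left out. Genes listed beside PSMD5 in the table were chosen after its values were seen, and 3 of them were not near 0. FBXW2 had 15.1 and 13.6 in the knockout line against 13.3 and 11.9 in parental cells (limma, adjusted p = 0.22), and PHF19 had 57.2 and 64.5 against 51.0 and 50.9 (limma, adjusted p = 0.054). LOC100288842 had 3.83 and 3.07 against 3.13 and 3.79. A low locus listed directly after PSMD5, known only by a transcript identifier, was at 0 and 0.0525 in the knockout line, 0.552 and 0.848 in the mutant degron line, 4.73 and 4.48 in the wildtype degron line, and 2.15 and 1.69 in parental cells, the same order of lines as PSMD5.

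The PSMD5 promoter is shown because this gene had the largest difference of any member. It lies at chr9:120842873-120843172 (minus strand) in RefSeq build GRCh38.p14, with capitals marking CG.
PSMD5: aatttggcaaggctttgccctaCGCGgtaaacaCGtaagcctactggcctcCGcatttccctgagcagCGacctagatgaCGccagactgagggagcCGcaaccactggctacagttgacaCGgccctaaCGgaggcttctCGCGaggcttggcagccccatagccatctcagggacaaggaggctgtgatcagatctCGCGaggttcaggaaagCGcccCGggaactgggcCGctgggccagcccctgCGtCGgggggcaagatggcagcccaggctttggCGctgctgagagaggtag
It holds 19 CG, and 42.9% of all promoters of this length hold as many or more. DNA methylation and copy number were not measured here.

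PSMG3 stood at 90.1 and 107 in the knockout line without and with Shld against 119 and 142 in parental cells, a fall of 0.40 ± 0.10 (limma, adjusted p = 0.012). The mutant and wildtype degron libraries were also below both parental libraries, at 78.6 to 109. Both parental libraries were above all 6 others for 12.1% of all genes. The adjusted p of PSMG3 rose to 0.099 without the parental library with Shld. PSMD9, a chaperone of the base, stood at 27.4 and 32.4 in the knockout line against 39.0 and 35.7 in parental cells, a fall of 0.31 ± 0.11 (limma, adjusted p = 0.046), and with a library left out its adjusted p ran from 0.016 to 0.37. All 8 melanocyte markers fell in this line, where 21.4% of all genes did. In the mutant degron line 3 of 8 fell, where 14.4% of all genes did. In the wildtype degron line 3 rose and 1 fell, where 23.7% of all genes rose and 24.5% fell. The part of the markers' fall in the results for PSMD5, PSMG3 and PSMD9 was not tested. Without the parental library without Shld 9 members passed, 8 lower and 1 higher, and without the parental library with Shld or the knockout library without Shld PSMD5 alone did.

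**Figure D4:**
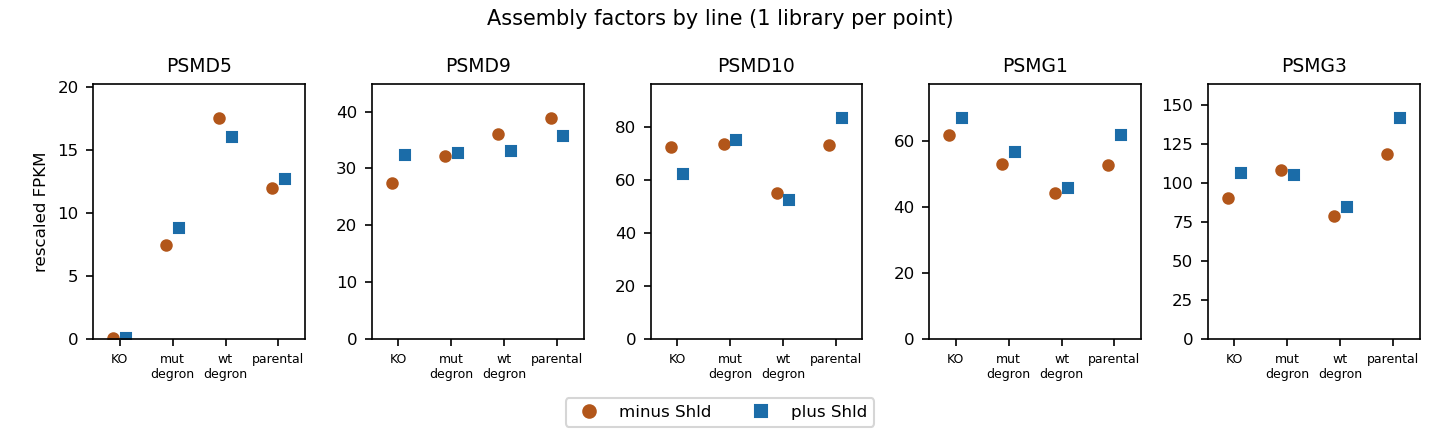
Rescaled FPKM (vertical axes from 0, 1 per panel) of the 5 assembly factors by line, with 1 library per point. PSMD5 is close to 0 in both knockout libraries and highest in the wildtype degron line, and the other 4 factors stay within a factor of 1.81 over all libraries.

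In the mutant degron line 2 members fell against parental cells and 0 rose (limma, adjusted p under 0.05), where 26.8% of all genes passed, 14.4% lower and 12.3% higher. At an unadjusted p under 0.05 there were 5 members, against 40.2% of all genes. PSMD5 fell by 0.56 ± 0.13 (adjusted p = 0.012 in the limma fit), with 7.41 and 8.79 in the mutant degron line against 12 and 12.7 in parental cells. PSMF1, which encodes an inhibitor of the core particle, had 31.8 and 34.0 in the mutant degron line against 42.7 and 41.5 in parental cells. It was the member whose mutant degron values lay below all 6 other libraries, which held for 8.8% of all genes, while PSMB2, PSMB5 and PSMC2 lay above all 6, which held for 6.3%. PSMF1 fell by 0.35 ± 0.09 (limma, adjusted p = 0.024). With a library left out the adjusted p of PSMD5 ran from 0.0075 to 0.10 and that of PSMF1 from 0.020 to 0.15, and 0 members passed without the parental library with Shld or the mutant degron library without it. The same parental libraries stand in all 3 line comparisons. The largest difference above 0 was that of PSMD1, at 0.29 ± 0.10 (limma, adjusted p = 0.063). The median over the members was -0.003, and it was 0.06 after quantile normalization. Core and regulatory medians were 0.00 and 0.02.

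Withdrawal of Shld changed no member past the threshold in any derived line, and the parental pair was not tested by itself. Over the 4 lines together, 0 members and 0 genes passed (limma, adjusted p under 0.05), and at an unadjusted p under 0.05 there were 0 members and 527 genes, 6.13% of those tested. For single lines the spread came from the parental pair alone, with every other library assumed to vary like it. On these terms 0 of 38 members passed in the knockout line, where 2.73% of all genes passed, 0.965% higher and 1.77% lower. In the mutant degron line 0 of 38 passed, where 0.0465% of all genes did, 0.0349% higher and 0.0116% lower. In the wildtype degron line 0 of 38 passed, where 0.093% of all genes did, 0.0349% higher and 0.0581% lower. At an unadjusted p under 0.05 there were 0 members in each of the 3, against 13.1% of all genes in the knockout line, 1.7% in the mutant degron line and 3.97% in the wildtype degron line, and a fit with the spread from all 4 pairs also called 0 members. The SE of a single member in these limma fits was 0.16 to 0.29 on the log2 scale, wider than most differences.

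The small differences had 1 sign for most subunits in each degron line. In the wildtype degron line 33 of 38 members were higher without Shld, against 53.8% of all genes, with a median of 0.12. In the knockout line 26 of 38 were higher, against 50.6% of all genes, with a median of 0.10. In the mutant degron line 4 of 38 were higher, against 47.2% of all genes, with a median of -0.11. In parental cells 17 of 38 were higher, against 55.8% of all genes, with a median of -0.05. Under quantile normalization, median scaling and the length correction these counts stayed at 33 in the wildtype degron line, 26 to 29 in the knockout line and 3 to 5 in the mutant degron line. Members of 1 pair share the same 2 libraries, so their counts are not independent observations.

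Core and regulatory subunits had the same sign for most members of each class in both degron lines. In the wildtype degron line 15 of 17 regulatory subunits were higher without Shld, in the knockout line 11 of 17, in the mutant degron line 1 of 17 and in parental cells 10 of 17. Among core subunits in the wildtype degron line all 13 were higher without Shld, from 0.03 for PSMB5 to 0.23 for PSMB1. In the knockout line 10 of 13 were higher, and in the mutant degron line 1 of 13 was, PSMA7. In parental cells 4 of 13 were higher, all of them beta subunits, and the 6 alpha subunits had a median of -0.36. The largest single differences in the degron lines were those of the lid subunit PSMD12, with 105 and 83.0 without and with Shld in the wildtype degron line, a difference of 0.34 ± 0.19, and 78.4 and 96.1 in the mutant degron line, a difference of -0.29 ± 0.19. Neither passed (limma, adjusted p = 1 in both).

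The test of the difference between lines called 0 members in each of 3 contrasts. The withdrawal difference of the wildtype degron line less that of the mutant degron line was above 0 for 34 of 38 members, with a median of 0.23 against 0.02 over all genes, and 0.244% of all genes passed. PSMD12, at 0.63 ± 0.27, was the member with an unadjusted p under 0.05, where 4.34% of all genes had one. The knockout line less the mutant degron line gave 29 of 38 above 0 with a median of 0.20, and 0.454% of all genes passed. The knockout line less the wildtype degron line gave 11 of 38 above 0 with a median of -0.06, and 0.0233% of all genes passed. At an unadjusted p under 0.05 both of these contrasts held 0 members, against 8.81% and 3.13% of all genes. The fit with the spread from all 4 pairs called 0 members in all 3. The fragments behind a unit of value were not measured. They were estimated from the most common ratio of low values between a library and the parental library with Shld. The estimates were 1.05 and 1.45 times that library in the knockout line without and with Shld, 1.05 and 1.48 times in the mutant degron line and 1.07 and 1.19 times in the wildtype degron line. The part of depth was not tested.

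**Figure D5:**
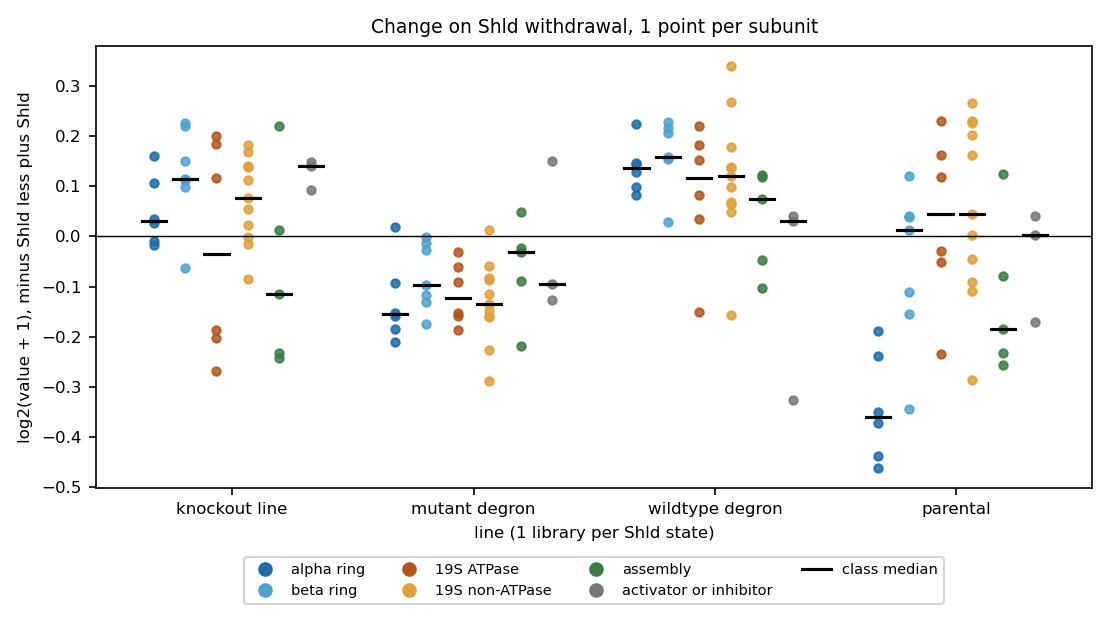
Difference between the library without and the library with Shld (vertical axis, log2(value + 1)) for each of the 38 subunits in each line, by class, with class medians as bars. Nearly all points lie above 0 in the wildtype degron line and below 0 in the mutant degron line, and the alpha ring lies lowest in parental cells.

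Genes that work with the proteasome under other names were read in the same fits, and their counts stand against the shares of all genes that passed: 48.2% for the wildtype degron line (23.7% higher, 24.5% lower), 40.1% for the knockout line (18.7% higher, 21.4% lower) and 26.8% for the mutant degron line (12.3% higher, 14.4% lower). Of 11 tested partners, 2 rose and 3 fell in the wildtype degron line against parental cells, 5 of 11 against 48.2% of all genes. POMP, the maturation factor of the core, fell by 0.87 ± 0.15 (limma, adjusted p = 0.00199), with 89.6 and 75.3 in the wildtype degron line against 131 and 173 in parental cells, and TXNL1, a thioredoxin bound to the regulatory particle, fell by 0.65. ADRM1, a ubiquitin receptor, and KIAA0368, a proteasome adaptor, rose by 0.33 and 0.41, and SHFM1, the smallest lid subunit, fell by 0.27. In the knockout line 1 partner rose, SHFM1 by 0.28, and 3 fell, among them ADRM1 by 0.26, 4 of 11 against 40.1% of all genes. In the mutant degron line 1 of 11 passed, KIAA0368, which fell by 0.30, against 26.8% of all genes. The first 2 shares are near those of all genes.

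Of the 5 tested genes of the NFE2L1 pathway, 3 rose and 0 fell in the wildtype degron line, and 2 rose in each of the other derived lines, against 23.7% of all genes that rose with the wildtype degron, 18.7% with the knockout and 12.3% with the mutant degron. NFE2L1 stood at 104 and 85.6 in the knockout line without and with Shld, 114 and 122 in the mutant degron line, 146 and 133 in the wildtype degron line, and 79.9 and 59.6 in parental cells. Every library of a derived line was above both parental ones, which held for 12.7% of all genes. The differences of NFE2L1 were 0.45 ± 0.12, 0.76 ± 0.12 and 1.00 ± 0.12 in the knockout, mutant degron and wildtype degron lines (limma, adjusted p = 0.018, 0.0025 and 0.00064). All 3 are against the same parental libraries, so they are not separate observations. SEL1L, a subunit of the endoplasmic reticulum ubiquitin ligase, rose in all 3 lines by 0.73 to 0.85, and its ligase SYVN1 rose in the wildtype degron line by 0.53. These are transcript levels, and NFE2L1 is known to be controlled largely after translation.

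Of 10 tested genes of ubiquitin and its activation, 5 fell and 1 rose in the wildtype degron line, against 24.5% of all genes that fell and 23.7% that rose. RPS27A, which encodes ubiquitin fused to a ribosomal protein, fell by 1.5 ± 0.16 (limma, adjusted p = 0.00053), with 879 and 870 in the wildtype degron line against 1948 and 3151 in parental cells, and the activating enzyme UBA1 rose by 0.54. The conjugating enzymes UBE2D1, UBE2D2, UBE2D3 and UBE2L3 fell by 0.24 to 0.50. In the knockout line 1 rose, UBA1 by 0.49, and 1 fell, where 40.1% of all genes passed. In the mutant degron line 0 of 10 passed, where 26.8% of all genes did, and 5 had an unadjusted p under 0.05. Of 12 shuttle factors and cofactors of the segregase VCP, 4 rose and 1 fell in the wildtype degron line, 1 rose and 3 fell in the knockout line, and 1 rose and 3 fell in the mutant degron line. These are 5, 4 and 4 of 12, near the 48.2%, 40.1% and 26.8% of all genes that passed. SQSTM1, an autophagy receptor that also delivers ubiquitinated cargo, stood at 245 and 194 in the knockout line without and with Shld, 295 and 303 in the mutant degron line, 673 and 602 in the wildtype degron line, and 486 and 472 in parental cells, and fell by 1.13 and 0.68 in the knockout and mutant degron lines and rose by 0.41 in the wildtype degron line.

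Peptides from the proteasome are loaded on MHC class I, and 8 genes of that route and of interferon signalling were tested. In the wildtype degron line 3 rose and 1 fell, in the knockout line 1 rose and 3 fell, and in the mutant degron line 2 rose and 0 fell. These are 4, 4 and 2 of 8, near the 48.2%, 40.1% and 26.8% of all genes that passed. B2M, the class I light chain, fell by 0.94 ± 0.12 in the wildtype degron line and by 0.57 ± 0.12 in the knockout line (limma, adjusted p = 0.00073 and 0.0057), with 548 and 576 in the wildtype degron line and 701 and 744 in the knockout line against 916 and 1264 in parental cells. HLA-E rose in all 3 lines by 0.33 to 0.61, and the peptide transporter subunit TAP2 rose by 0.61 in the wildtype degron line and by 0.41 in the mutant degron line. HLA-C, which shares sequence with other class I genes, was at or near 0 in 2 libraries, and its values are not given.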

How the data were processed

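The 8 libraries were made with a TruSeq RNA kit and sequenced as paired reads, per the labels' protocols. TopHat and Cufflinks with build hg19 are named per the submitters' processing notes; their versions, the annotation and the strand setting were not stated there. The authors deposited 1 table of FPKM-type values rescaled so that the 75th percentile of each library is 10. That FPKM was the input is inferred from Cufflinks and from the values. Depth is unknown, so no counting interval is given.

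Genes with a name and a mean of 5 or more, without small RNAs and with 1 locus per symbol, entered a model on log2(value + 1), fitted by limma 3.58.1 (R 4.3.3) with a mean-variance trend and Benjamini-Hochberg adjustment at 0.05 over 8599 genes. A fold change on this scale understates the change of low genes. Lines were compared in a fit with line and Shld state as terms (3 residual degrees of freedom, 5.98 prior). A withdrawal in 1 line, and its difference between lines, took the spread from the parental pair (1 residual degree of freedom, 23.3 prior). Nothing says that libraries came from separate cultures, so the p-values reflect only how these libraries spread.

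Members and gene lists were chosen with earlier results of these data known. Named are members past the threshold, the extremes of each class, catalytic and inducible subunits, and some of the list genes past the threshold. Other list genes past the threshold are only counted. Alternatives were a pseudocount of 0.1, a minimum mean of 1 or none, quantile normalization, median scaling, all loci, each library left out, the spread from all 4 pairs and, chosen after seeing the data, a transcript length correction (lowess on GENCODE 29 lengths, available for 96.2% of genes). The fits were tested on simulated data. Promoters are RefSeq's (GRCh38.p14); PSMA7, PSMB1, PSMB6, PSMB7, PSMD4 and PSMG3 were not matched. Some genes of the marker and pathway lists are not reported here.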

Additional observations from a re-analysis of the deposited data

How the results depend on the processing

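No member that passed changed its direction under any alternative run. The wildtype degron line's count of 23 members was 16 to 23 under the alternatives that keep all libraries, and 10 to 22 with 1 library left out. The member median of this comparison, -0.28, was -0.16 after quantile normalization and -0.16 with the length correction. The knockout line's count of 3 was 2 to 3, and 1 to 9 with 1 library left out. The mutant degron line's count of 2 was 1 with the length correction, when PSMF1 had an adjusted p of 0.067 in the limma fit, and 0 to 2 with 1 library left out; its member median of -0.003 was 0.06 after quantile normalization and with the length correction. In the withdrawal comparisons and their differences, 0 members passed under every alternative run. Over all genes, left-out libraries gave 1921 to 3361 calls for the knockout line against 3446, 886 to 2550 for the mutant degron line against 2303, and 1947 to 4299 for the wildtype degron line against 4144. Over the 4 lines together, Shld withdrawal gave 0 to 2 genes. The alternatives that keep all libraries differ in the number of genes tested, so their counts over all genes are not shares. The withdrawal calls over all genes were 0 to 246 against 235 in the knockout line, 0 to 18 against 4 in the mutant degron line and 0 to 13 against 8 in the wildtype degron line, and for the differences 0 to 27 against 21, 0 to 39 against 39 and 0 to 27 against 2. The cause was not tested. No library could be left out of a withdrawal, since each state has 1. No paired analysis was possible because each group has 1 library; the line is already a term of the fit over all libraries. With unknown depth, a value listed at 0 or near it cannot be read as absence.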
